A study of Homo sapiens with 24 samples.

Results

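The genes described here are 35 enzymes and regulators of cholesterol and fatty acid synthesis, taken by symbol from a list of the pathway and matched to Ensembl identifiers among the 60675 rows of a gene count table. All 35 were found. Their RNA was measured in MIA PaCa-2 cells, an established human pancreatic ductal adenocarcinoma line, in 24 RNA sequencing libraries that form 8 groups of 3. CTRL cells carried the doxycycline-responsive Tet-On vector without an insert, and C/EBPδ-inducible cells carried it with the cDNA of CEBPD, a basic leucine zipper factor related to C/EBPα and C/EBPβ. Both were lysed after 0, 8, 24 or 48 h of doxycycline at 2 µg/mL in complete medium with serum. The labels list that dose for the 0 h samples too, while the study's methods describe cells kept without doxycycline. The 0 h groups are therefore taken here as untreated, and every value called untreated or before doxycycline rests on that reading.

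Some features of the model bear on every comparison. The inducible cells were a pool of 3 clones, and the lines also carried different fluorescent proteins (mVenus or mCherry, delivered by lentivirus), so that the CEBPD cDNA, clonal origin and marker cannot be told apart in a difference between the lines at 0 h. No library without doxycycline stood at 8, 24 or 48 h, so that doxycycline and time in culture cannot be told apart within 1 line. Replicates were parallel wells of a plate, and p-values measure only the spread between these wells.

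Cells make cholesterol from acetyl-CoA through the mevalonate pathway, and fatty acids by carboxylating and condensing the same building block. Both routes are controlled at the level of transcription by the sterol regulatory element binding proteins, encoded by SREBF1 and SREBF2. The SREBF2 product acts mainly on cholesterol genes and the main SREBF1 product of lipid-making cells on fatty acid genes. When sterols in the membrane of the endoplasmic reticulum are low, the escort protein SCAP carries the precursors to the Golgi apparatus, where 2 proteases release the active factors, and when sterols are high INSIG1 and INSIG2 hold SCAP back. INSIG1, SREBF2 and most of the enzymes are themselves targets of these factors.

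The libraries held 12731237 to 22598595 counts, with a median of 18959363.5, of which 0.327% to 0.691% fell on the 35 genes. CEBPD itself followed the labels: its mean was 1.90 to 4.02 CPM (counts scaled to library size with TMM factors) in the CTRL groups, 21.5 ± 2.4 (SD, n = 3) in untreated inducible cells, and 249 ± 15, 307 ± 13 and 204 ± 7.1 after 8, 24 and 48 h. All 5 ductal epithelium markers passed 1 CPM in some library, with a summed level of 114 to 2949 CPM. KRT8, KRT18 and KRT19 were lower in the inducible line at 0 h (log2 differences of -4.40, -3.36 and -3.50), and the part of this in the results below was not tested. The other ductal markers, KRT7 and EPCAM, had few counts, and the lines overlapped at 0 h. KRT7 had 10, 6 and 19 counts in CTRL and 18, 17 and 9 in inducible libraries. EPCAM had 24, 19 and 18 counts against 43, 10 and 2. Of the fibroblast markers COL1A2 was at 449 to 688 CPM in CTRL libraries and at 135 to 252 CPM in inducible libraries. COL1A1 and COL3A1 had few counts and went the other way. At 24 h COL1A1 had 5, 10 and 7 counts in CTRL libraries and 19, 14 and 20 in inducible libraries. COL3A1 had 4, 5 and 8 counts against 22, 14 and 13 at that time. DCN had at most 1 count in any library. The hepatocyte markers ALB and APOA1, of interest because liver is a lipid-making tissue, together stayed at or under 0.170 CPM. Replicates differed most at 8 h: the chi-square per gene between 2 libraries of a group was 5.93 to 16.7 within CTRL 8 h and 12.3 and 12.5 for inducible 8 h replicate 3 against the others, and 1.66 to 8.36 in the remaining groups. In all, 34 members passed the filter on low counts in every comparison. STARD4, a sterol carrier, had group means of 0.0778 to 0.292 CPM and was not tested.

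Measured per kilobase of exon, SCD, the desaturase that makes oleate from stearate, had the highest level of the 35 in untreated CTRL cells (151 ± 4.6 RPKM, SD, n = 3), followed by ACLY, which makes cytosolic acetyl-CoA from citrate (131 ± 2.3 RPKM), and by the fatty acid synthase gene FASN (88.3 ± 2.3 RPKM). At 48 h in inducible cells the same genes led in the same order, with SCD at 500.0 ± 0.32 RPKM. The lowest of the tested members in untreated CTRL cells was ELOVL6, the elongase that turns palmitate into stearate, at 0.253 ± 0.028 RPKM. The summed level of the 35 genes was 3999 ± 35 CPM in CTRL cells and 3967 ± 27 CPM in inducible cells at 0 h (SD, n = 3). At 8 h the sums were 3391 ± 114 and 3276 ± 39 CPM, at 24 h 4067 ± 60 and 4665 ± 82 CPM, and at 48 h 5576 ± 178 and 6641 ± 90 CPM. The sum was therefore lowest at 8 h and highest at 48 h in both lines. Without SCD it ran through 3206, 2784, 3179 and 3599 CPM in CTRL cells and 3185, 2729, 3444 and 4018 CPM in inducible cells. FASN, ACLY and ACACA were the largest terms left in that sum in every library, and each sterol gene weighed less in it.

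**Figure D1:**
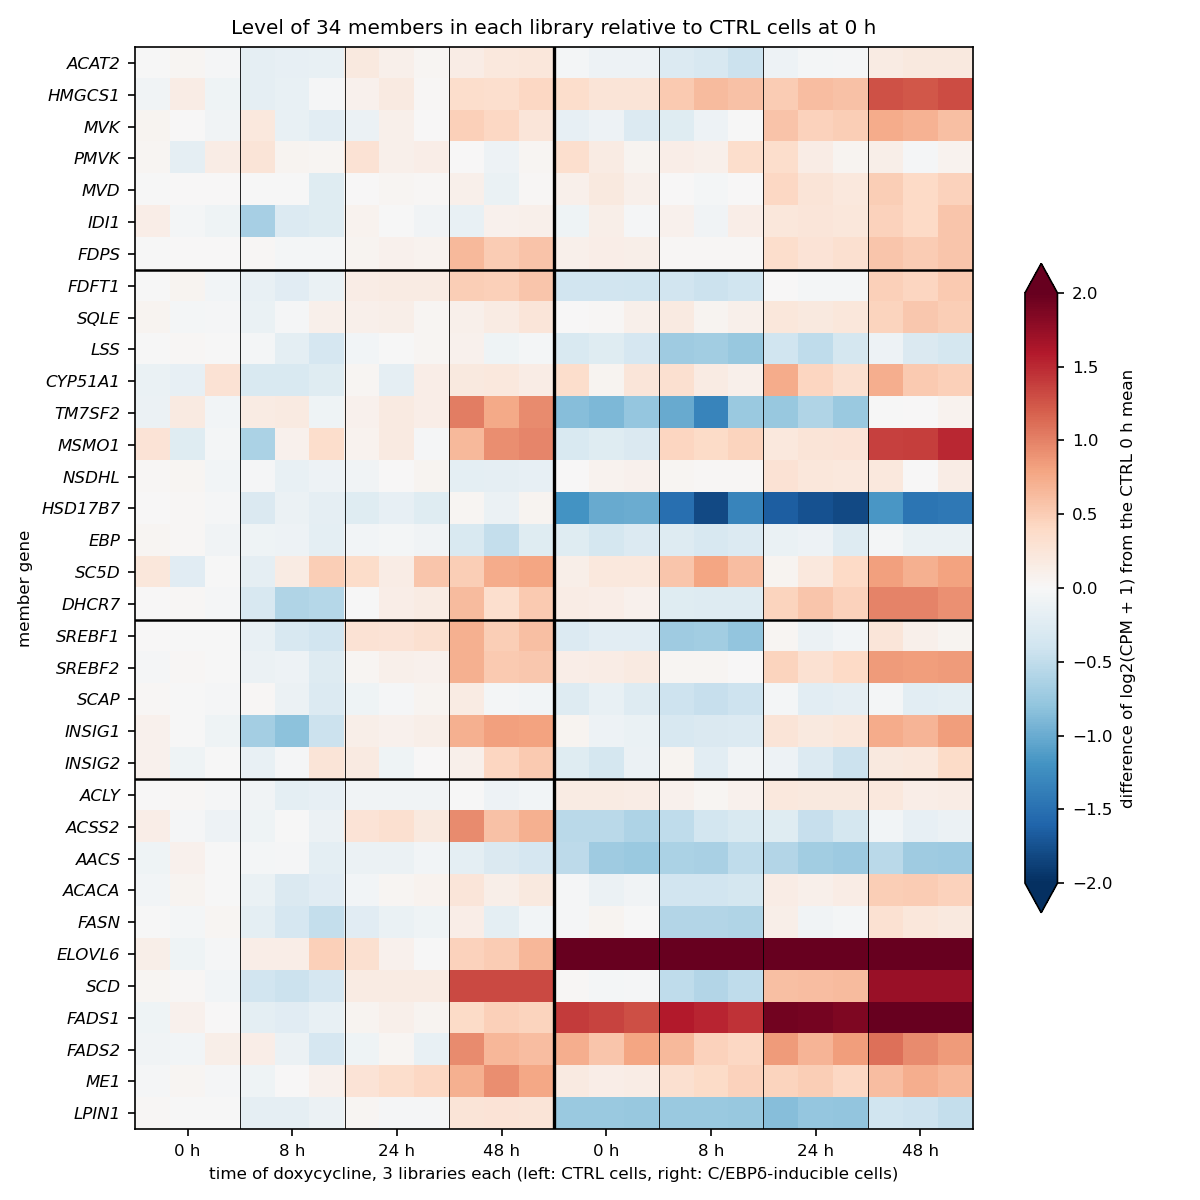
Heat map of the 34 tested members (rows, in 4 blocks by role: acetyl-CoA to farnesyl diphosphate, squalene to cholesterol, regulators, fatty acid genes) in 24 libraries (columns), coloured by the difference of log2(CPM + 1) from the mean of CTRL 0 h, with colours saturated at 2 in each direction. The columns at 8 h are mostly pale to blue, those at 48 h mostly red, and ELOVL6 and FADS1 are red in all 12 libraries of the inducible line.

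The first comparison asked how the genes changed with time under doxycycline in each line. At 48 h the direction was largely upward in both. In CTRL cells 20 of 34 members rose and 2 fell between 0 and 48 h at an adjusted p under 0.01 (30% of all genes were called, 15.2% higher and 14.7% lower), and in inducible cells 26 rose and 0 fell (38.7% of all genes called, 19.1% higher and 19.5% lower). The median log2 fold change of the members was 0.37 in CTRL cells and 0.46 in inducible cells, against 0.01 and 0.00 over all genes tested. The 20 members that rose in CTRL cells were all among the 26 of the inducible line. The other 6 were MVD and IDI1 of the mevalonate pathway, SQLE and EBP of the sterol steps, INSIG2 and FASN. The matching overlap over all genes that rose was not counted, so this overlap is not read as particular to the members. Leaving out each library in turn, 15 of the 22 CTRL calls and 24 of the 26 inducible calls were kept every time.

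**Figure D2:**
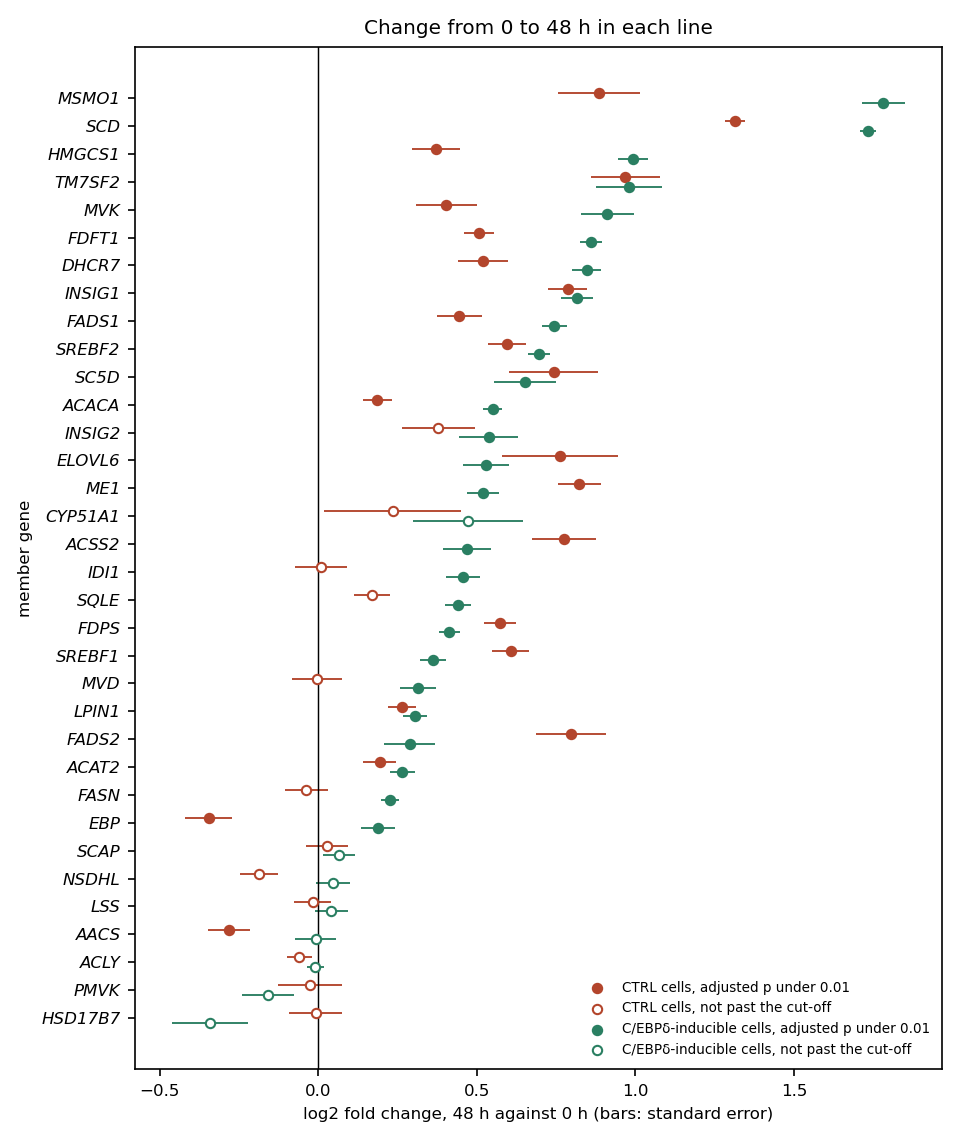
Log2 fold change from 0 to 48 h (x axis) of the 34 tested members (y axis, sorted by the inducible line) in CTRL cells and C/EBPδ-inducible cells, with bars of 1 standard error and filled points for an adjusted p under 0.01. MSMO1 and SCD lie farthest to the right in the inducible line, and EBP and AACS are the members that fell in CTRL cells.

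SCD had the largest rise of any member in CTRL cells. In CTRL cells it stood at 812, 802 and 766 CPM at 0 h, 606, 591 and 625 at 8 h, 886, 888 and 890.2 at 24 h, and 1972, 1971 and 1988 at 48 h. In inducible cells it stood at 802, 768 and 776 CPM at 0 h, 557, 529 and 555 at 8 h, 1206, 1222 and 1233 at 24 h, and 2623, 2621 and 2624 at 48 h. The libraries of each 48 h group lay within 20 CPM of each other and far above all earlier ones, and the 8 h libraries lay below the 0 h libraries in both lines. The log2 fold change from 0 to 48 h was 1.31 ± 0.03, edgeR adjusted p = 3.03e-10 in CTRL cells and 1.73 ± 0.03, edgeR adjusted p = 5.87e-26 in inducible cells, which is 2.49-fold and 3.33-fold.

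MSMO1, the methylsterol oxidase that starts the removal of methyl groups at C4 of the sterol ring, had the largest rise in inducible cells and is named for that reason, after its values were seen. CTRL cells had 15.5, 10.5 and 12.3 CPM at 0 h, 7.77, 13.5 and 16.4 at 8 h, 13.4, 14.5 and 12.4 at 24 h, and 20.3, 25.1 and 25.9 at 48 h, with a wide spread at 8 h. Inducible cells had 10.01, 10.5 and 10.2 CPM at 0 h, 17.3, 16.8 and 17.7 at 8 h, 14.7, 15.3 and 15.5 at 24 h, and 34.4, 34.7 and 37.7 at 48 h, and their 48 h libraries lay above every other library of the series. The change at 48 h was 0.88 ± 0.13, edgeR adjusted p = 0.000163 in CTRL cells and 1.78 ± 0.07, edgeR adjusted p = 4.96e-17 in inducible cells.

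Among the regulators, both SREBF genes and INSIG1 rose in both lines. SREBF2 stood in CTRL cells at 76.5, 79.1 and 77.3 CPM at 0 h, 71.8, 72.3 and 64.8 at 8 h, 80.1, 82.9 and 82.1 at 24 h, and 127, 112 and 114 at 48 h. In inducible cells SREBF2 stood at 84.8, 85.7 and 87.9 CPM at 0 h, 79.6, 79.6 and 78.3 at 8 h, 107, 96.1 and 102 at 24 h, and 141, 140.1 and 141 at 48 h. The 48 h libraries of each line lay above its other libraries, with changes of 0.59 ± 0.06, edgeR adjusted p = 9.87e-06 in CTRL cells and 0.70 ± 0.04, edgeR adjusted p = 9.82e-15 in inducible cells. INSIG1 counts in CTRL cells came to 47.8, 44.6 and 42.05 CPM at 0 h, 27.7, 25.01 and 33.1 at 8 h, 48.9, 47.4 and 48.5 at 24 h, and 74.3, 79.5 and 79.1 at 48 h. Inducible cells had INSIG1 at 46.6, 41.8 and 40.7 CPM at 0 h, 35.7, 36.4 and 36.9 at 8 h, 54.02, 51.4 and 52.8 at 24 h, and 75.7, 72.5 and 80.96 at 48 h. The INSIG1 groups of the lines overlapped at 0 and 48 h, and the rise to 48 h was 0.79 ± 0.06, edgeR adjusted p = 1.39e-06 in CTRL cells and 0.82 ± 0.05, edgeR adjusted p = 1.01e-12 in inducible cells.

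SREBF1 had a lower level in the inducible line at every time. CTRL cells held it at 132, 131 and 132 CPM at 0 h, 118, 105 and 100.4 at 8 h, 162, 160.3 and 164 at 24 h, and 217, 186 and 199 at 48 h. Inducible cells held it at 109, 114 and 114 CPM at 0 h, 79.6, 81.1 and 75.9 at 8 h, 135, 121 and 127 at 24 h, and 156, 142 and 137 at 48 h. No library of the inducible line reached the CTRL libraries of the same time, and each line had its lowest values at 8 h and its highest at 48 h. From 0 to 48 h SREBF1 changed by 0.61 ± 0.06, edgeR adjusted p = 6.45e-06 in CTRL cells and 0.36 ± 0.04, edgeR adjusted p = 6.24e-08 in inducible cells. INSIG2, which is not under the same sterol control as INSIG1, stood at 12.3, 10.7 and 11.4 CPM at 0 h, 10.3, 11.2 and 13.9 at 8 h, 13.1, 10.7 and 11.5 at 24 h, and 12.4, 15.7 and 16.9 at 48 h in CTRL cells. In inducible cells INSIG2 stood at 9.53, 8.70 and 10.5 CPM at 0 h, 11.98, 9.79 and 10.8 at 8 h, 10.7, 9.29 and 8.23 at 24 h, and 13.2, 13.4 and 15.3 at 48 h. Its change at 48 h was 0.38 ± 0.11, edgeR adjusted p = 0.0184 in CTRL cells, not past the cut-off of 0.01, and 0.54 ± 0.09, edgeR adjusted p = 2.71e-05 in inducible cells. SCAP held group means of 64.4 to 71.5 CPM in CTRL cells and 51.9 to 63.2 CPM in inducible cells and was not called at 48 h against 0 h in either line.

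**Figure D3:**
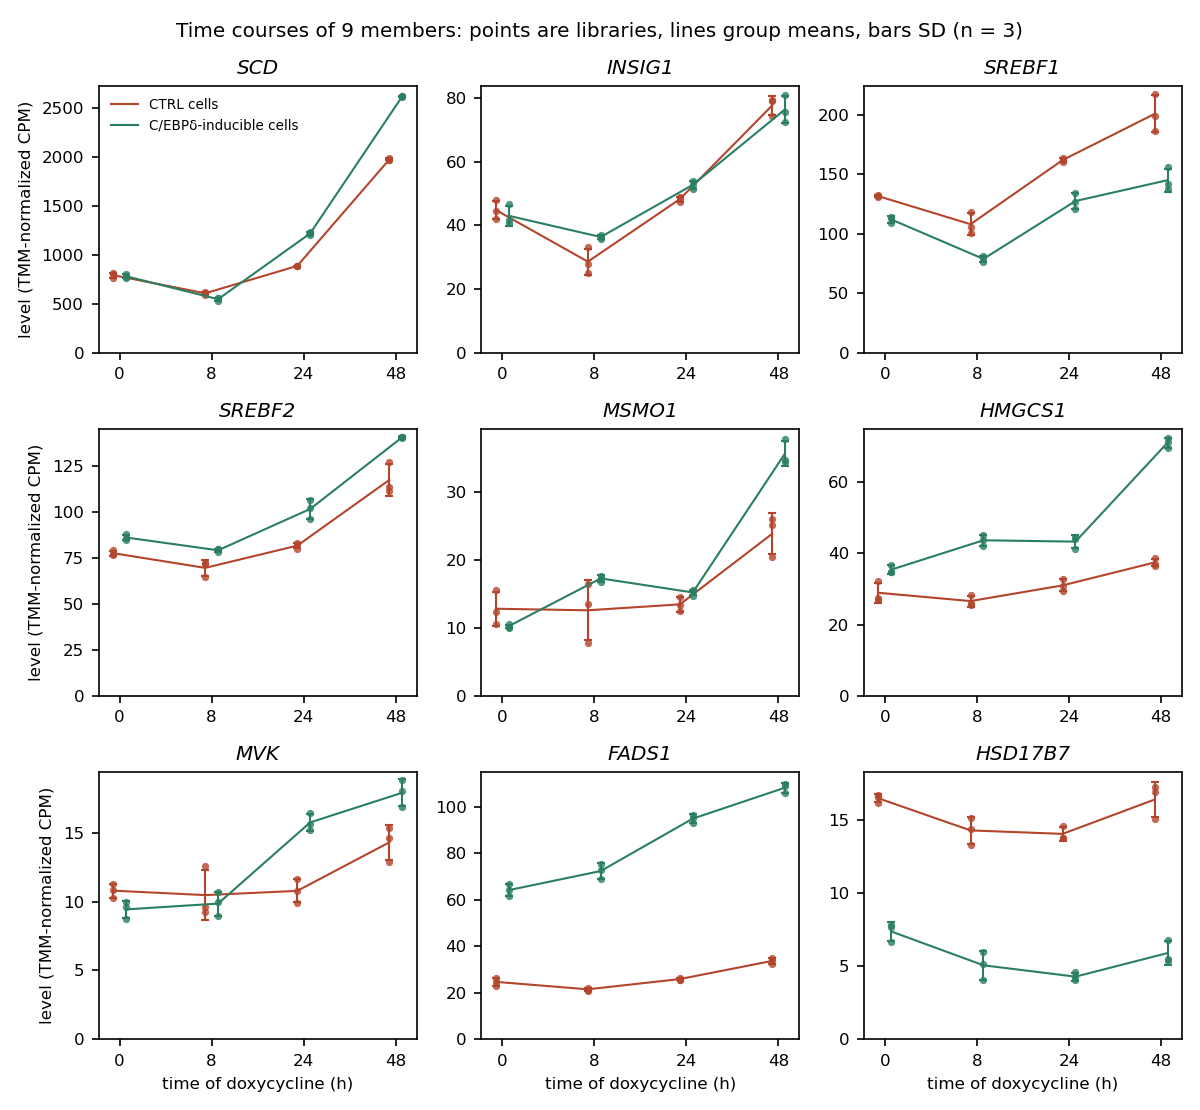
Levels (y axis, TMM-normalized CPM from 0) of 9 members at 0, 8, 24 and 48 h of doxycycline (x axis, evenly spaced positions), with 1 point per library, a line through the group means and bars of 1 SD (n = 3). SCD reaches 1971 to 1988 CPM in CTRL cells and 2621 to 2624 CPM in inducible cells at 48 h, SREBF1 of the inducible line lies under that of CTRL cells at each time, and FADS1 of the inducible line lies above.

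Upstream promoter sequences of a few members are shown because the regulators above act there, often next to a CCAAT box bound by the factor NF-Y. Windows of 250 bases before to 50 bases after a transcription start were taken from RefSeq on GRCh38.p14, and 31 of the 35 members had 44 windows in all. The letters CCAAT, on either strand, were in 25 of the 44 windows (56.8%), against 34.6% of the 34796 windows of all genes, and 21 of the 31 members had them in at least 1 window. The GC box GGGCGG was in 39 of 44 member windows (88.6%), in 44.9% of all windows and in 56.3% of the 21957 windows of protein-coding genes. TCACNCCAC, the letters used for a sterol regulatory element, were in 1 member window (2.27%) and 1.12% of all windows. TTGCNNAA, used for a C/EBP site, was in 3 member windows (6.82%), those of FADS1, NSDHL and SCAP, in 10.5% of all windows and in 8.67% of the protein-coding ones. For the CCAAT and sterol element letters the share of protein-coding windows was 34.7% and 1.12%. These counts describe letters in the windows, with no test. The element of SREBF2 lay 133 bases before its start, at chr22:41832972-41832980. The 250 bases before the start are printed on the gene's own plus strand for SCD (chr10:100346983-100347232), MSMO1 (chr4:165327419-165327668), INSIG1 (chr7:155297628-155297877), SREBF2 (chr22:41832855-41833104) and HSD17B7 (chr1:162790452-162790701), the last as a member whose level went the other way in the inducible line. Capitals mark CCAAT or its complement ATTGG and, in SREBF2, the sterol element.
SCD: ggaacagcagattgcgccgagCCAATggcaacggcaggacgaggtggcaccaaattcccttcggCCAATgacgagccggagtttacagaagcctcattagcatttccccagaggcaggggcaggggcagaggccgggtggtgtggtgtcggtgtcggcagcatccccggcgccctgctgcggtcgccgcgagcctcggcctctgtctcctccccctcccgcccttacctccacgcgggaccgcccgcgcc
MSMO1: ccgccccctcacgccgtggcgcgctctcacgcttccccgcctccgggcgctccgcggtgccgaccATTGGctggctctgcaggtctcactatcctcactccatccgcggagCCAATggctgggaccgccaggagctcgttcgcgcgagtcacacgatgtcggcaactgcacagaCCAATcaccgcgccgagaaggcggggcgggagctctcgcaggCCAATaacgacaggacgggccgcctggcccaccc
INSIG1: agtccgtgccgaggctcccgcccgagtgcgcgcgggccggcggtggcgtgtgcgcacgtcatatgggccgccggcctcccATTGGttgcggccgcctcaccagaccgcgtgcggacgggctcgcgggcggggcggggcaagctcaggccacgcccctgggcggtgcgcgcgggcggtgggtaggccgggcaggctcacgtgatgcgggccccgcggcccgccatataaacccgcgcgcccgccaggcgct
SREBF2: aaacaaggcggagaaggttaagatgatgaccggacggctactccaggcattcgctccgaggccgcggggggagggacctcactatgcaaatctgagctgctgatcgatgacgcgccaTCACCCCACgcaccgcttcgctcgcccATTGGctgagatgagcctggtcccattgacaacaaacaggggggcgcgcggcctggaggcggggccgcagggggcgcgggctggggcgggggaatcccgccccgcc
HSD17B7: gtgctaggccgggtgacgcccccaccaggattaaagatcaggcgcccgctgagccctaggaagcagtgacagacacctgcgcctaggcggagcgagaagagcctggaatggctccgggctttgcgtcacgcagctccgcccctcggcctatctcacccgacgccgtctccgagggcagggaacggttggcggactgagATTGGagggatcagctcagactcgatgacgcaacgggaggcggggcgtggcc
MSMO1 has 4 CCAAT matches in this stretch, SCD has 2, and each of INSIG1, SREBF2 and HSD17B7 has 1. Whether the box goes with a rise was not tested.

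In the steps from acetyl-CoA to farnesyl diphosphate, 4 of 7 members rose in CTRL cells at 48 h and 6 of 7 in inducible cells, with none lower. HMGCS1, which makes HMG-CoA at the entry of the mevalonate pathway, stood in CTRL cells at 27.6, 32.2 and 27.01 CPM at 0 h, 25.4, 26.03 and 28.3 at 8 h, 30.8, 32.8 and 29.4 at 24 h, and 37.05, 36.6 and 38.7 at 48 h. In inducible cells HMGCS1 stood at 36.9, 34.7 and 34.7 CPM at 0 h, 42.1, 45.2 and 43.7 at 8 h, 41.2, 44.7 and 43.9 at 24 h, and 71.2, 69.5 and 72.3 at 48 h. Each inducible group lay above the CTRL group of the same time without overlap, and the 48 h libraries of the inducible line stood apart from all others. The change at 48 h was 0.37 ± 0.08, edgeR adjusted p = 0.00186 in CTRL cells and 0.99 ± 0.05, edgeR adjusted p = 2.19e-15 in inducible cells. The CTRL call for HMGCS1 was lost without CTRL 0 h replicate 1 (edgeR adjusted p = 0.0178), CTRL 0 h replicate 3 (edgeR adjusted p = 0.0244) or CTRL 48 h replicate 3 (edgeR adjusted p = 0.0144). FDPS, the farnesyl diphosphate synthase, rose in both (0.57 ± 0.05 and 0.41 ± 0.03 on the log2 scale), as did ACAT2, the cytosolic thiolase (0.19 ± 0.05 and 0.26 ± 0.04). The CTRL call for ACAT2 was lost without CTRL 0 h replicates 1, 2 or 3 (edgeR adjusted p = 0.0660, 0.0352 and 0.0895) or CTRL 48 h replicates 2 or 3 (edgeR adjusted p = 0.0164 and 0.0522), with DESeq2 (adjusted p = 0.0282) and without a filter on low counts (edgeR adjusted p = 0.0222). IDI1, an isomerase of the pathway, and MVD, a decarboxylase, changed by 0.01 ± 0.08 and -0.01 ± 0.08 in CTRL cells without a call and rose by 0.45 ± 0.05 and 0.31 ± 0.06 in inducible cells. PMVK, a kinase of the same route, was called in none of the time comparisons against 0 h.

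MVK, the mevalonate kinase, was called higher in the inducible line at 24 h but not at 8 h. CTRL cells had 11.3, 10.8 and 10.3 CPM at 0 h, 12.6, 9.63 and 9.23 at 8 h, 9.94, 11.6 and 10.8 at 24 h, and 15.4, 14.7 and 12.9 at 48 h. Inducible cells had 9.59, 9.98 and 8.78 CPM at 0 h, 8.94, 9.99 and 10.7 at 8 h, 16.5, 15.3 and 15.6 at 24 h, and 18.8, 18.1 and 16.9 at 48 h. The inducible libraries at 24 h lay above all CTRL libraries of 0, 8 and 24 h, whereas those at 0 h lay below the CTRL libraries of 0 h. In inducible cells MVK rose by 0.74 ± 0.08, edgeR adjusted p = 2.55e-07 at 24 h and 0.91 ± 0.08, edgeR adjusted p = 1.27e-09 at 48 h, and in CTRL cells it changed by 0.01 ± 0.09, edgeR adjusted p = 0.976 and 0.40 ± 0.10, edgeR adjusted p = 0.00484. The CTRL call at 48 h was lost without each of CTRL 0 h replicates 1, 2 and 3 (edgeR adjusted p = 0.0137, 0.0218 and 0.0343) and CTRL 48 h replicates 1 and 2 (edgeR adjusted p = 0.0104 and 0.0106). MVK shares exon sequence with MMAB on the other strand, and the strand setting of the counting is not given in the sources used here.

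In the steps from squalene to cholesterol, 5 of 11 members rose and 1 fell in CTRL cells at 48 h, and 7 of 11 rose in inducible cells. FDFT1, the squalene synthase, stood at 125, 130.5 and 122 CPM at 0 h, 114, 108 and 115 at 8 h, 140.2, 142 and 141 at 24 h, and 178, 175 and 185 at 48 h in CTRL cells. Inducible cells had FDFT1 at 96.7, 96.00 and 94.8 CPM at 0 h, 95.8, 93.3 and 95.5 at 8 h, 126, 123 and 122 at 24 h, and 175, 171 and 181 at 48 h. The inducible libraries lay below the CTRL libraries at 0, 8 and 24 h and overlapped them at 48 h. Its change at 48 h was 0.51 ± 0.05, edgeR adjusted p = 5.78e-06 in CTRL cells and 0.86 ± 0.03, edgeR adjusted p = 1.21e-16 in inducible cells. DHCR7, which reduces the last double bond of the route, rose by 0.52 ± 0.08 and 0.85 ± 0.05, and SC5D, a sterol desaturase, by 0.74 ± 0.14 and 0.65 ± 0.10. SQLE, the epoxidase, changed by 0.17 ± 0.06 in CTRL cells without a call and rose by 0.44 ± 0.04 in inducible cells.

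TM7SF2, a sterol reductase, was at 9.19, 11.5 and 9.66 CPM at 0 h, 11.5, 11.6 and 9.40 at 8 h, 10.8, 11.5 and 11.1 at 24 h, and 21.4, 17.7 and 20.3 at 48 h in CTRL cells. In inducible cells TM7SF2 was at 5.11, 4.94 and 5.46 CPM at 0 h, 4.52, 3.44 and 5.65 at 8 h, 5.55, 6.34 and 5.59 at 24 h, and 10.02, 10.1 and 10.7 at 48 h. The lines had separate levels at each time, and the rises were 0.97 ± 0.11, edgeR adjusted p = 2.21e-05 in CTRL cells and 0.98 ± 0.10, edgeR adjusted p = 1.63e-08 in inducible cells. EBP, a sterol isomerase, had 41.7, 41.3 and 38.7 CPM at 0 h, 37.98, 37.8 and 35.3 at 8 h, 39.1, 39.4 and 38.6 at 24 h, and 32.7, 29.00 and 34.2 at 48 h in CTRL cells. Inducible cells had EBP at 33.9, 31.6 and 33.4 CPM at 0 h, 33.6, 32.3 and 33.5 at 8 h, 36.9, 37.7 and 33.6 at 24 h, and 39.6, 36.9 and 36.95 at 48 h. It fell by 0.35 on the log2 scale in CTRL cells at 48 h (edgeR adjusted p = 0.00233; 0.0103 without CTRL 0 h replicate 2). In inducible cells it rose by 0.19 ± 0.05, edgeR adjusted p = 0.00579, a call lost without inducible 0 h replicates 2 or 3 (edgeR adjusted p = 0.0395 and 0.0127) or 48 h replicates 1 or 2 (edgeR adjusted p = 0.0284 and 0.0104). LSS, the lanosterol synthase, stood at 79.4, 81.2 and 79.8 CPM at 0 h, 77.5, 69.8 and 63.1 at 8 h, 76.7, 79.6 and 81.9 at 24 h, and 85.02, 75.3 and 77.6 at 48 h in CTRL cells. In inducible cells LSS stood at 64.7, 67.8 and 62.9 CPM at 0 h, 48.4, 49.1 and 46.9 at 8 h, 60.3, 56.2 and 62.4 at 24 h, and 74.9, 65.4 and 62.6 at 48 h. LSS was not called at 48 h against 0 h in either line (-0.02 ± 0.06 and 0.04 ± 0.05). CYP51A1, the lanosterol demethylase, had group means of only 1.46 to 3.47 CPM. Its exons overlap 2 other annotated genes on the same strand and others on the opposite strand, so its level is uncertain. NSDHL, a C4 decarboxylase, was called at 48 h in neither line.

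HSD17B7, a ketosteroid reductase of the C4 steps, was the 1 member called lower in inducible cells at 24 h against 0 h. CTRL cells had 16.5, 16.7 and 16.1 CPM at 0 h, 13.3, 15.1 and 14.4 at 8 h, 13.8, 14.6 and 13.7 at 24 h, and 16.9, 15.03 and 17.2 at 48 h. Inducible cells had 6.60, 7.69 and 7.76 CPM at 0 h, 5.15, 4.01 and 5.97 at 8 h, 4.55, 4.24 and 4.01 at 24 h, and 6.79, 5.36 and 5.49 at 48 h. The inducible libraries lay under all CTRL libraries at every time and had their lowest mean at 24 h. Relative to 0 h HSD17B7 fell by 0.78 on the log2 scale in inducible cells at 24 h (edgeR adjusted p = 1.9e-05), and its change at 48 h was -0.34 ± 0.12, edgeR adjusted p = 0.0193. The changes in CTRL cells were -0.23 ± 0.07 at 24 h and -0.01 ± 0.08 at 48 h, neither of them called. HSD17B7, SCD and FDPS have pseudogene copies in the genome, and reads shared with a copy make their counts less certain.

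Of the 11 fatty acid genes, 8 rose and 1 fell in CTRL cells at 48 h, and 9 rose in inducible cells. ACACA, the acetyl-CoA carboxylase that commits carbon to fatty acids, stood at 354, 379.9 and 366 CPM at 0 h, 336, 300.5 and 312 at 8 h, 352, 375 and 385 at 24 h, and 434, 399.7 and 421 at 48 h in CTRL cells. In inducible cells ACACA stood at 359.8, 338 and 348 CPM at 0 h, 280.4, 279 and 288 at 8 h, 406, 394 and 404 at 24 h, and 515, 523 and 504 at 48 h. Its inducible libraries lay below 300 CPM at 8 h and above 500 CPM at 48 h, with changes at 48 h of 0.19 ± 0.05, edgeR adjusted p = 0.00526 in CTRL cells and 0.55 ± 0.03, edgeR adjusted p = 3.75e-14 in inducible cells. The CTRL call was lost without CTRL 0 h replicates 1, 2 or 3 (edgeR adjusted p = 0.0467, 0.0134 and 0.0451) or CTRL 48 h replicate 3 (edgeR adjusted p = 0.0256). ME1, the malic enzyme that supplies NADPH, rose by 0.82 ± 0.07 and 0.52 ± 0.05. FASN rose by 0.23 ± 0.03 in inducible cells and changed by -0.04 ± 0.07 in CTRL cells without a call. ACLY was called at 48 h in neither line (-0.06 ± 0.04 and -0.01 ± 0.03).

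ACSS2, which makes acetyl-CoA from acetate, had 22.4, 20.04 and 19.01 CPM at 0 h, 19.1, 20.4 and 18.8 at 8 h, 24.9, 25.9 and 23.6 at 24 h, and 40.1, 31.1 and 33.9 at 48 h in CTRL cells. Inducible cells had ACSS2 at 13.8, 13.7 and 12.99 CPM at 0 h, 14.1, 15.7 and 16.3 at 8 h, 17.2, 14.6 and 15.8 at 24 h, and 19.8, 18.1 and 18.7 at 48 h. The CTRL libraries lay above the inducible libraries at every time, and the rise at 48 h was 0.77 ± 0.10, edgeR adjusted p = 6.83e-05 in CTRL cells and 0.47 ± 0.08, edgeR adjusted p = 1e-05 in inducible cells. AACS, which activates acetoacetate, stood at 50.6, 57.5 and 53.8 CPM at 0 h, 52.1, 53.2 and 47.2 at 8 h, 49.4, 49.4 and 51.6 at 24 h, and 46.8, 44.1 and 42.6 at 48 h in CTRL cells. Inducible cells held AACS at 37.1, 32.5 and 31.8 CPM at 0 h, 34.2, 33.9 and 37.8 at 8 h, 35.4, 32.98 and 32.1 at 24 h, and 36.95, 32.6 and 32.2 at 48 h. It fell by 0.28 on the log2 scale in CTRL cells at 48 h (edgeR adjusted p = 0.00451), a call lost without CTRL 0 h replicates 2 or 3 (edgeR adjusted p = 0.0221 and 0.0161) or CTRL 48 h replicate 3 (edgeR adjusted p = 0.0315). In inducible cells it changed by -0.01 ± 0.06 without a call. LPIN1, a phosphatidate phosphatase of glycerolipid synthesis, was at 124, 122 and 121 CPM at 0 h, 108, 108 and 112 at 8 h, 125, 120.2 and 120.3 at 24 h, and 147, 148 and 147 at 48 h in CTRL cells. In inducible cells LPIN1 was at 72.8, 72.97 and 72.3 CPM at 0 h, 72.5, 72.4 and 71.8 at 8 h, 67.1, 71.4 and 69.97 at 24 h, and 92.4, 91.3 and 87.7 at 48 h. It rose at 48 h by 0.26 ± 0.04, edgeR adjusted p = 0.000373 in CTRL cells and 0.31 ± 0.04, edgeR adjusted p = 3.26e-07 in inducible cells, from separate levels.

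The earlier times moved less and partly downward. At 8 h in CTRL cells INSIG1 fell by 0.62 and SCD by 0.36 on the log2 scale (edgeR adjusted p = 0.00586 and 0.000796), and these were the only 2 members called (1.7% of all genes). Without CTRL 8 h replicate 1 there were 7, and with CTRL 0 h replicate 3 or CTRL 8 h replicate 2 left out there was 1. Neither call was kept in every set with 1 library left out: the INSIG1 call was lost without CTRL 0 h replicates 1, 2 or 3 or CTRL 8 h replicate 2 (edgeR adjusted p = 0.0384, 0.0387, 0.0217 and 0.0282), and the SCD call without CTRL 0 h replicates 1 or 2 (edgeR adjusted p = 0.0103 and 0.0127). In inducible cells 12 members fell and 6 rose at 8 h (30.5% of all genes called, 15.8% lower and 14.6% higher). Those that fell were ACAT2, LSS, HSD17B7, DHCR7, SREBF1, SREBF2, SCAP, INSIG1, ACLY, ACACA, FASN and SCD, among them FASN by -0.61 ± 0.02, edgeR adjusted p = 1.59e-14 and SREBF1 by -0.51 ± 0.03, edgeR adjusted p = 9.7e-11. Those that rose were HMGCS1, MSMO1, SC5D, ELOVL6, FADS1 and ME1, with MSMO1 at 0.74 ± 0.08, edgeR adjusted p = 1.87e-07. Without inducible 8 h replicate 3, the library that differed most from its group, the SREBF2 call was lost (edgeR adjusted p = 0.0176). Of the 34 tested members, 25 had their lowest group mean at 8 h in CTRL cells and 18 in inducible cells. The same count over all genes was not made, so it is not known whether these shares are particular to the members.

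At 24 h against 0 h, 5 members rose in CTRL cells, namely FDFT1, SREBF1, ACSS2, SCD and ME1, and FASN fell (6.06% of all genes called, 2.81% higher and 3.25% lower). That count of 6 was 3 without CTRL 0 h replicate 3, CTRL 24 h replicate 1 or CTRL 24 h replicate 2. In inducible cells 16 rose and HSD17B7 fell (15.5% of all genes called, 7.33% higher and 8.14% lower). An analysis of variance for each gene called 5 members higher there and 0 lower (3.2% of all genes), with HSD17B7 at an adjusted p of 0.0189. The members that rose in inducible cells included 4 of 7 early mevalonate genes, 5 of 11 sterol genes, 3 of 5 tested regulators and 4 of 11 fatty acid genes. By size they were led by MVK (0.74 ± 0.08), SCD (0.65 ± 0.02), MSMO1 (0.57 ± 0.08) and FADS1 (0.57 ± 0.04). Between 24 and 48 h 17 members rose further and EBP fell in CTRL cells (23.5% of all genes called, 12.2% higher and 11.3% lower), and 21 rose and 0 fell in inducible cells (23.8% of all genes called, 11.7% higher and 12.1% lower). Between 8 and 24 h 5 rose in CTRL cells (2.44% of all genes called, 1.07% higher and 1.38% lower), a count that was 12 without CTRL 8 h replicate 1, 2 without CTRL 8 h replicate 2, 3 without CTRL 24 h replicates 1 or 2 and 1 without CTRL 24 h replicate 3. In the same interval 19 rose and 2 fell in inducible cells (29.6% of all genes called, 14.3% higher and 15.2% lower).

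The second comparison asked how the lines differed before doxycycline. At 0 h 17 of 34 members differed, 7 higher and 10 lower in inducible cells, while 43.9% of all genes were called (20% higher and 23.9% lower). The share of members called was therefore near that of the whole transcriptome. The median log2 difference of the members was -0.02, against 0.01 over all genes tested. In the sterol steps 5 of 11 members were lower and 0 higher, and in the mevalonate steps 2 of 7 were higher and 0 lower. Of the 17 calls, 14 were kept without each library in turn, and those of HMGCS1, FDPS and SREBF2 were not.

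ELOVL6 and FADS1 had the largest differences between the lines at 0 h. ELOVL6 was at 2.07, 1.68 and 1.78 CPM at 0 h, 2.12, 2.09 and 2.93 at 8 h, 2.55, 2.01 and 1.82 at 24 h, and 2.89, 3.05 and 3.48 at 48 h in CTRL cells. In inducible cells ELOVL6 was at 14.01, 14.2 and 13.6 CPM at 0 h, 18.8, 17.96 and 18.3 at 8 h, 14.2, 15.8 and 15.5 at 24 h, and 19.5, 20.6 and 20.7 at 48 h. The lowest inducible library (13.6 CPM) lay far above the highest CTRL library of any time (3.48 CPM). The difference at 0 h was 2.91 ± 0.12, edgeR adjusted p = 1.2e-13, which is 7.49-fold, and it remained at 2.69 ± 0.10 at 48 h. The rise of ELOVL6 in CTRL cells from 0 to 48 h (0.76 ± 0.18) was called, and the call was lost without CTRL 0 h replicates 2 or 3 (edgeR adjusted p = 0.0240 and 0.0260) or CTRL 48 h replicates 2 or 3 (edgeR adjusted p = 0.0101 and 0.0265), and with DESeq2 (adjusted p = 0.0450). FADS1, the delta-5 desaturase of polyunsaturated fatty acids, had 23.02, 26.3 and 24.7 CPM at 0 h, 21.4, 20.9 and 22.1 at 8 h, 25.6, 26.4 and 25.6 at 24 h, and 32.3, 34.8 and 33.97 at 48 h in CTRL cells. Inducible cells had FADS1 at 66.7, 64.1 and 61.8 CPM at 0 h, 75.6, 72.7 and 69.01 at 8 h, 96.8, 95.3 and 93.00 at 24 h, and 109.9, 109 and 106 at 48 h. All inducible libraries lay above all CTRL libraries, with a difference of 1.37 ± 0.06, edgeR adjusted p = 7.28e-14 at 0 h and 1.87 ± 0.04, edgeR adjusted p = 3.28e-22 at 24 h. FADS2, the delta-6 desaturase encoded beside it, stood at 9.86, 9.93 and 11.3 CPM at 0 h, 11.5, 9.51 and 8.00 at 8 h, 9.73, 10.7 and 9.23 at 24 h, and 20.8, 17.1 and 16.4 at 48 h in CTRL cells. In inducible cells FADS2 stood at 17.7, 15.6 and 18.7 CPM at 0 h, 16.8, 14.6 and 14.1 at 8 h, 19.6, 17.3 and 19.2 at 24 h, and 23.4, 20.9 and 19.5 at 48 h. It was 0.72 ± 0.09, edgeR adjusted p = 1.29e-06 higher in inducible cells at 0 h, and the difference at 48 h was 0.23 ± 0.10, edgeR adjusted p = 0.0817, not called. FADS1 and FADS2 share exon sequence with each other on opposite strands.

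Lower in untreated inducible cells were HSD17B7 (-1.17 ± 0.09, edgeR adjusted p = 9.31e-10), TM7SF2 (-0.98 ± 0.11, edgeR adjusted p = 5.05e-07), LPIN1 (-0.76 ± 0.03, edgeR adjusted p = 3.54e-13), AACS (-0.68 ± 0.06, edgeR adjusted p = 1.53e-08) and ACSS2 (-0.61 ± 0.08, edgeR adjusted p = 1.49e-06). Smaller differences were those of FDFT1 (-0.40 ± 0.04), EBP (-0.31 ± 0.05), LSS (-0.31 ± 0.04), SREBF1 (-0.24 ± 0.03) and SCAP (-0.24 ± 0.04) below CTRL cells. HMGCS1 (0.29 ± 0.06), ACLY (0.15 ± 0.02), SREBF2 (0.14 ± 0.04) and FDPS (0.11 ± 0.03) lay above. The HMGCS1 call was lost without CTRL 0 h replicate 3 (edgeR adjusted p = 0.0182) or inducible 0 h replicate 1 (edgeR adjusted p = 0.0116). The SREBF2 call was lost without CTRL 0 h replicates 1 or 3 (edgeR adjusted p = 0.0112 and 0.0155) or inducible 0 h replicates 2 or 3 (edgeR adjusted p = 0.0108 and 0.0243).

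**Figure D4:**
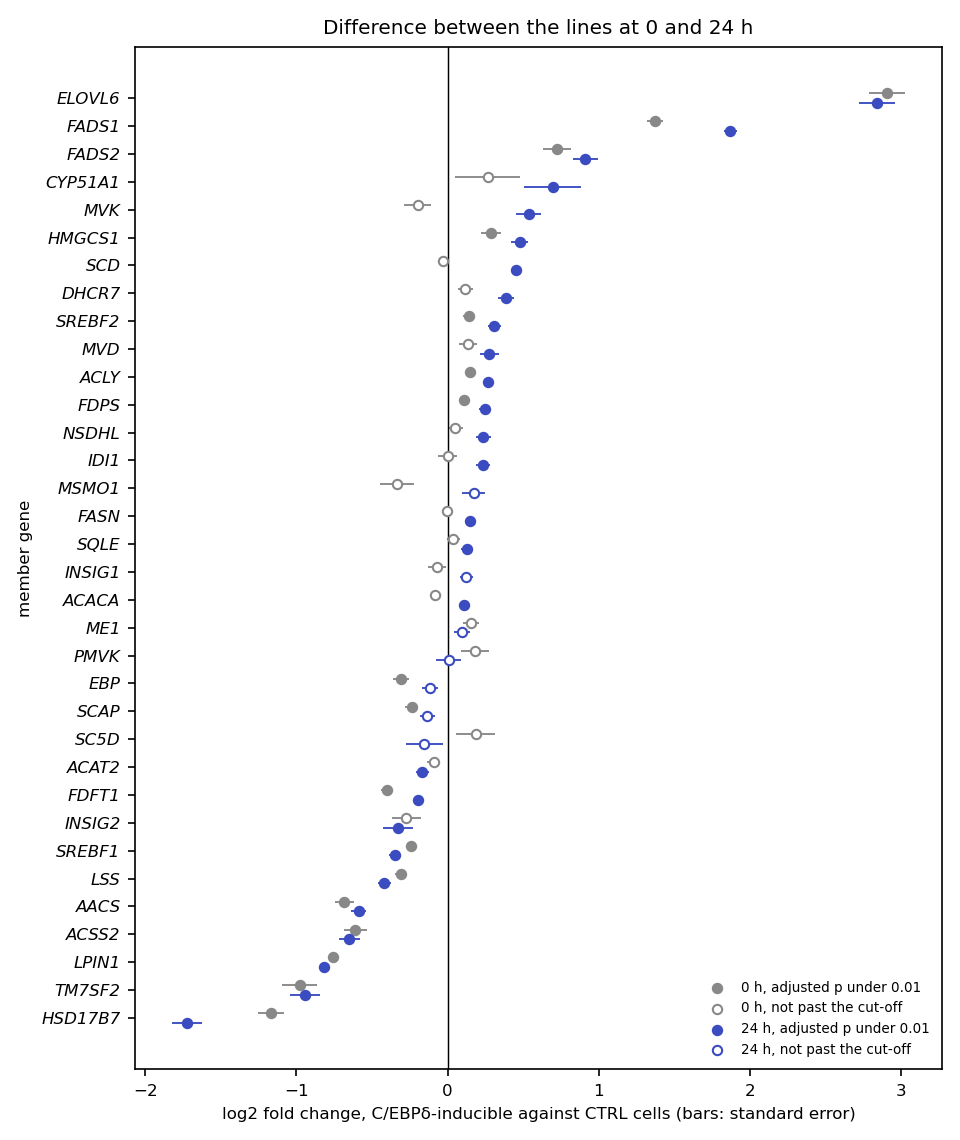
Log2 difference of C/EBPδ-inducible from CTRL cells (x axis) for the 34 tested members (y axis, sorted by 24 h) at 0 and 24 h, with bars of 1 standard error and filled points for an adjusted p under 0.01. ELOVL6 stands near 2.9 at both times and HSD17B7 moves from -1.17 to -1.72.

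The lines differed in 18 members at 8 h, 8 higher and 10 lower (31.8% of all genes called, 14.3% higher and 17.4% lower). That count was 11 without CTRL 8 h replicate 2, 10 without inducible 8 h replicate 1, 11 without inducible 8 h replicate 2 and 11 without inducible 8 h replicate 3. They differed in 27 members at 24 h, 17 higher and 10 lower (46.9% of all genes called, 21.5% higher and 25.3% lower), and in 21 members at 48 h, 15 higher and 6 lower (38.3% of all genes called, 17.6% higher and 20.7% lower). At 24 h the analysis of variance for each gene called 18 members, 10 higher and 8 lower. DESeq2 called 22 there, 14 higher and 8 lower. The shares of all genes called with these tests are not given here. The median difference of the members was 0.06, 0.13 and 0.22 at 8, 24 and 48 h. In all, 10 members were called in the same direction at all 4 times: HMGCS1, ACLY, ELOVL6 and FADS1 were higher in inducible cells, and TM7SF2, HSD17B7, SREBF1, ACSS2, AACS and LPIN1 were lower. The share of all genes called in the same direction at all 4 times was not counted. Whether these 10 exceed it is therefore not known.

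The third comparison, the interaction of line and time, asked which changes from 0 h were larger or smaller in inducible than in CTRL cells, so that what both lines did under doxycycline is taken off. Untreated inducible cells already had more CEBPD RNA than CTRL cells, which the paper puts down to probable leakiness of the Tet-On construct. The interaction is measured from that level. At 8 h 0 members passed in the edgeR test (1.66% of all genes called). At an unadjusted p under 0.05 there were 14, 9 with a positive and 5 with a negative interaction (22.6% of all genes, 11.1% positive and 11.5% negative), and DESeq2 called 2 (3.36% of all genes it tested). At 24 h 6 members passed, 5 positive and 1 negative (5.84% of all genes called, 2.86% positive and 2.98% negative). Of these counts, that at 8 h was 7 without CTRL 8 h replicate 3 and that at 24 h was 3 without inducible 0 h replicates 2 or 3 or CTRL 24 h replicate 2. At 48 h 6 passed (10 without CTRL 48 h replicate 1), all positive (5.54% of all genes called, 2.83% positive and 2.72% negative). SCD (0.49 ± 0.03, edgeR adjusted p = 3.18e-10), FADS1 (0.50 ± 0.07, edgeR adjusted p = 1.53e-05) and MVK (0.74 ± 0.12, edgeR adjusted p = 8.82e-05) gained more in inducible cells at 24 h. The interaction of HSD17B7 at 24 h was negative (-0.55 ± 0.13, edgeR adjusted p = 0.0046), and those of FDFT1 (0.21 ± 0.05) and ACACA (0.19 ± 0.05) were positive and small. The calls of FDFT1, HSD17B7 and ACACA at 24 h were each lost without any of several single libraries (highest edgeR adjusted p = 0.0150, 0.0250 and 0.0349). DESeq2 did not call HSD17B7 in this interaction. At 48 h MSMO1 had the largest interaction (0.89 ± 0.16, edgeR adjusted p = 0.000921), before HMGCS1 (0.61 ± 0.09, edgeR adjusted p = 0.000102), EBP (0.52 ± 0.09, edgeR adjusted p = 0.000807), SCD (0.41 ± 0.04, edgeR adjusted p = 8.31e-07), ACACA (0.35 ± 0.05, edgeR adjusted p = 0.000184) and FDFT1 (0.35 ± 0.06, edgeR adjusted p = 0.000361). The regulators did not pass: the interactions at 48 h were -0.25 ± 0.07 for SREBF1, 0.09 ± 0.07 for SREBF2, 0.02 ± 0.09 for INSIG1 and 0.15 ± 0.15 for INSIG2.

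**Figure D5:**
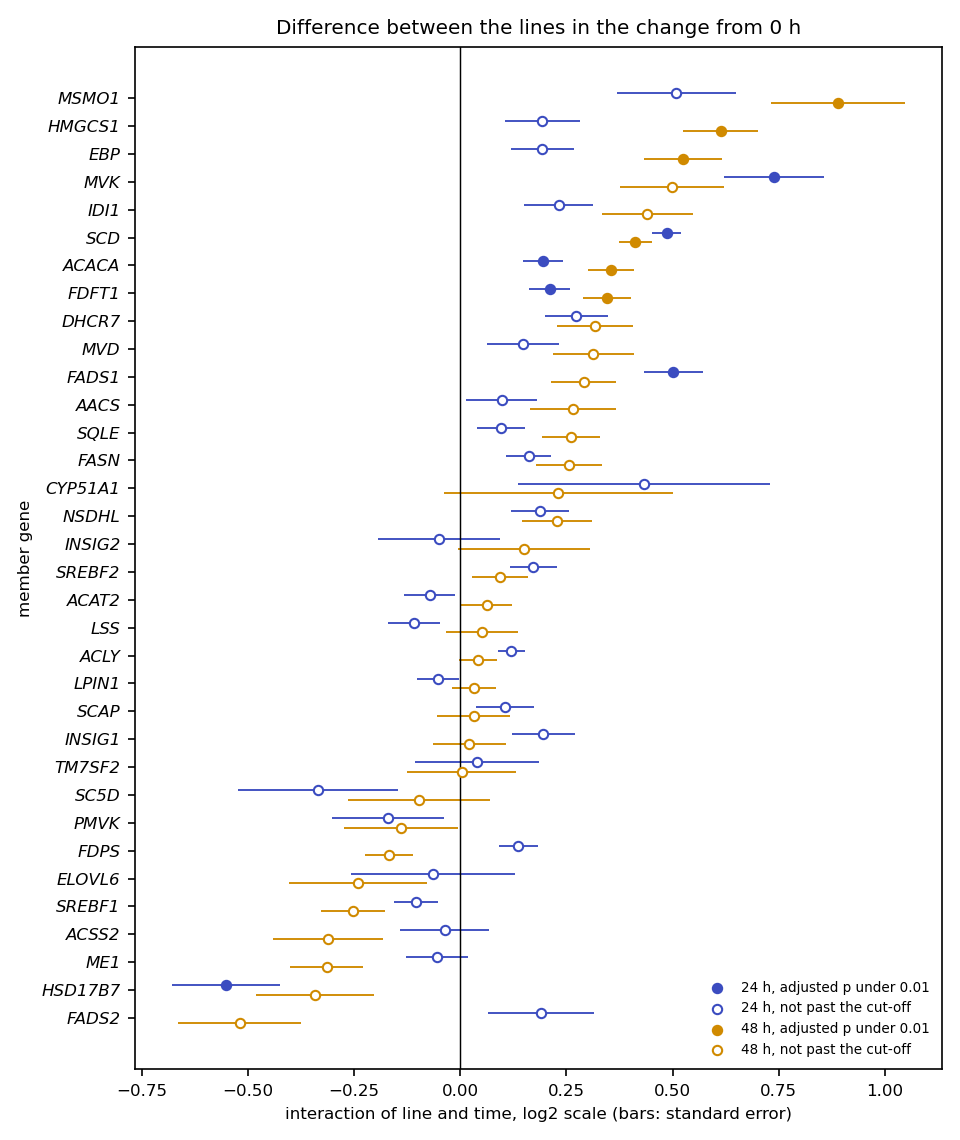
Interaction of line and time on the log2 scale (x axis; positive means a larger gain from 0 h in C/EBPδ-inducible than in CTRL cells) for the 34 tested members (y axis, sorted by 48 h) at 24 and 48 h, with bars of 1 standard error and filled points for an adjusted p under 0.01. HSD17B7 is the only filled point below 0.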

How the data were processed

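RNA was extracted from MIA PaCa-2 wells with a NucleoSpin kit, depleted of ribosomal RNA, prepared with the KAPA RNA HyperPrep kit and sequenced on an Illumina HiSeq4000. The authors trimmed reads with Trimmomatic, aligned them to GRCh38 with HISAT2 and deposited raw gene counts made with HTSeq. Whether counting used strand is not given in the sources used here, and sources differ on tool versions. Of 60675 identifiers, 56558 matched GENCODE release 44, whose exon lengths gave RPKM.

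The deposited counts were fitted with edgeR 4.0.16 in R 4.3.3 (TMM scaling, filterByExpr, quasi-likelihood test), with 1 model per comparison holding only the groups compared, and Benjamini-Hochberg adjustment over all genes tested. A call means an adjusted p under 0.01. Values after ± are SD for levels and standard errors for log2 fold changes, and printed CPM are TMM-scaled. Depth was 12731237 to 22598595 counts per library, which limits the precision of members under about 10 CPM most. No library was left out of the values reported, and no library without a group was present. The fits were tested on simulated counts.

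The members and the gene lists were chosen with earlier results of these data known. Every member is accounted for by role. Values in each library are given for those among the 12 with the largest log2 fold change past the cut-off in the interaction at 24 h or the line difference at 0 h, and for SREBF1, SREBF2, INSIG1 and INSIG2. Genes of other lists are named only where called with a log2 fold change over 0.5 in size. The other lists are elongation and desaturation, glycerolipid synthesis, the isoprenoid branch, SREBP processing, LXR targets and fatty acid oxidation, with marker lists for ductal epithelium, leukocytes, endothelium, fibroblasts and hepatocytes. Leukocyte, endothelium and fibroblast markers summed to at most 2.02, 2.72 and 689 CPM.

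Alternatives were DESeq2 1.42.0, other filters on low counts, a model of all 24 libraries, a replicate block, leaving out each library in turn and, for inducible cells at 24 h against CTRL cells and against 0 h, analysis of variance for each gene (log2 of CPM + 1). For same-numbered libraries every correlation of their deviations was over 0.1 only in CTRL cells at 24 h against 0 h (0.174 to 0.251). In the other comparisons within or between lines the numbers were not taken to pair the samples. In inducible cells at 48 h against 0 h each library still correlated best with its own number, weakly (0.0307 to 0.0854).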

Additional observations from a re-analysis of the deposited data

Results flagged for a closer look

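The results here are the 12 interactions of line and time that passed the edgeR test, that is, changes from 0 h that differed between C/EBPδ-inducible and CTRL cells (log2 scale, ± SE, 3 libraries per group). Clonal origin and fluorescent marker cannot be told apart from the CEBPD cDNA in them.

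At 24 h the interaction was 0.74 ± 0.12 for MVK, 0.49 ± 0.03 for SCD and 0.50 ± 0.07 for FADS1, and these calls were kept under all 17 alternatives each. It was 0.21 ± 0.05 for FDFT1, -0.55 ± 0.13 for HSD17B7 and 0.19 ± 0.05 for ACACA, and these calls were lost under 7, 8 and 11 of 17 alternatives. FDFT1 was lost without CTRL 0 h replicate 2, inducible 0 h replicates 2 or 3, or CTRL 24 h replicates 1 or 2 (edgeR adjusted p = 0.0102 to 0.0150). HSD17B7 was lost without CTRL 0 h replicate 3, inducible 0 h replicates 2 or 3, CTRL 24 h replicate 2, or inducible 24 h replicates 2 or 3 (edgeR adjusted p = 0.0119 to 0.0250). HSD17B7 was also lost with DESeq2, which called 6 members higher and 0 lower. The model of all 24 libraries, with 3 higher and 0 lower, did not call it either. ACACA was lost without CTRL 0 h replicates 2 or 3, inducible 0 h replicates 2 or 3, CTRL 24 h replicates 1 or 2, or inducible 24 h replicates 1, 2 or 3 (edgeR adjusted p = 0.0144 to 0.0349).

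At 48 h the interaction was 0.89 ± 0.16 for MSMO1, 0.61 ± 0.09 for HMGCS1, 0.52 ± 0.09 for EBP, 0.41 ± 0.04 for SCD, 0.35 ± 0.05 for ACACA and 0.35 ± 0.06 for FDFT1. These 6 calls were kept under all 17 alternatives each. EBP had an opposite direction in each line, with log2 fold changes of -0.35 in CTRL cells and 0.19 in inducible cells.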

How the results depend on the processing

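No member called in the edgeR test changed direction under any alternative. The number of members called in CTRL cells at 8 h against 0 h was 2, and it was 4 with DESeq2, 7 without a filter, 10 in the model of all 24 libraries, 0 with the replicate block and 0 (without CTRL 0 h replicates 1 or 2) to 7 (without CTRL 8 h replicate 1) with 1 library left out. Over all genes the percentage called there was 1.7, against 0.57 with the block and 7.22 in the model of all libraries. For CTRL cells at 24 h against 8 h the count of 5 became 10 without a filter, 13 in the model of all libraries and 1 (without CTRL 24 h replicate 3) to 12 (without CTRL 8 h replicate 1). For CTRL cells at 24 h against 0 h the 6 calls became 3 to 6 with 1 library left out, with 3 without CTRL 0 h replicate 3 or CTRL 24 h replicates 1 or 2. The replicate block, which the pairing check permits there, gave 6. For inducible cells at 24 h against 0 h, the analysis of variance called 5 in place of 17, and 3.2% of all genes in place of 15.5%. Between the lines at 8 h the 18 calls became 10 to 21 with 1 library left out.

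The interaction at 8 h had 0 calls, and 2 with DESeq2, 6 without a filter, 2 in the model of all libraries and 0 to 7 with 1 library left out, 7 without CTRL 8 h replicate 3. At 24 h the 6 calls became 3 in the model of all libraries and 3 to 6 with 1 library left out, 3 without inducible 0 h replicates 2 or 3 or CTRL 24 h replicate 2. At 48 h the 6 became 12 without a filter, 10 with at least 10 counts in every library and 6 to 10 with 1 library left out, 10 without CTRL 48 h replicate 1. The cause was not tested. Where a count under an alternative has no share of all genes beside it, its change is not read as particular to the members. Outside CTRL cells at 24 h against 0 h the numbers were not taken to pair the samples. Apart from CTRL cells at 8 h against 0 h, the block kept every count of members within 1.5 times. In inducible cells at 48 h against 0 h each library correlated best with its own number (0.0307 to 0.0854), a hint from the data only. Over all comparisons 17 called member values lost their call with the block, among them the interaction of ACACA at 24 h (edgeR adjusted p = 0.0157) and, in CTRL cells at 48 h, the changes of AACS, ACACA, ACAT2 and ELOVL6.

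Depth limits CYP51A1, STARD4 and, in CTRL cells, ELOVL6 most. Exons of 18 members overlap another gene. In 16 members a gene on the opposite strand is overlapped, and counts there are uncertain without the strand setting. In 5 members, some of them among the 16, a gene on the same strand is overlapped, where a strand setting would not help. These 5 are CYP51A1, TM7SF2, EBP, FADS1 and FADS2.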

Other observations

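LXR receptors are the sterol sensors that switch on cholesterol export, and of the 6 tested genes of their list 3 rose in CTRL cells and 4 in inducible cells between 0 and 48 h, with 0 lower in either (median log2 fold changes of 0.37 and 0.40). Over all genes at 48 h, 15.2% were called higher and 14.7% lower in CTRL cells, and 19.1% higher and 19.5% lower in inducible cells, and the counts of the smaller lists below are to be read against these shares. ABCG1, a sterol exporter, had mean levels of 2.78, 1.62, 3.61 and 11.4 CPM at 0, 8, 24 and 48 h in CTRL cells, and 1.43, 2.45, 9.34 and 22.7 CPM in inducible cells. Its interaction was 1.52 ± 0.28 at 8 h, 2.33 ± 0.21 at 24 h and 1.93 ± 0.18 at 48 h (edgeR adjusted p = 0.00527, 2.2e-08 and 5.08e-07). At 8 h it had 41, 23 and 26 counts in CTRL libraries and 53, 38 and 33 in inducible libraries. Genes of these other lists were not followed singly under the alternatives, and replicates differed most at 8 h. ABCA1, the exporter that loads apolipoproteins, had an interaction of the opposite sign. It rose by 1.52 ± 0.10 in CTRL cells at 48 h and by 0.79 ± 0.15 in inducible cells, an interaction of -0.74 ± 0.17 (edgeR adjusted p = 0.00643). ABCA1 was also lower in untreated inducible cells (-1.19 ± 0.13), as were ABCG1 (-0.96 ± 0.20) and LPCAT3 (-0.92 ± 0.06), whereas NR1H2, which encodes an LXR receptor, was higher (0.77 ± 0.07).

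Fatty acid oxidation genes were lower in inducible than in CTRL cells before doxycycline in 9 of 11 cases and higher in 1 (median difference -0.41, with 23.9% of all genes lower), and lower in 10 of 11 at 24 and at 48 h (25.3% and 20.7% of all genes). CPT1A, which admits fatty acids to mitochondria, was at -0.76 ± 0.06, CPT2 at -0.82 ± 0.06 and HADHB at -0.65 ± 0.04. From 0 to 48 h 8 of 11 rose and 1 fell in CTRL cells, and 6 rose and 2 fell in inducible cells. In inducible cells CPT1A first rose, by 0.79 ± 0.05 at 8 h, with an interaction of 0.50 ± 0.08 (edgeR adjusted p = 0.00257). Replicates differed most at 8 h, and this interaction was not followed under the alternatives. The change of CPT1A at 24 h was -0.20 ± 0.06, not called. It then fell by 0.80 on the log2 scale at 48 h against 0 h and had an interaction of -0.77 ± 0.09 (edgeR adjusted p = 1.95e-05). Of 9 further elongation and desaturation genes, 3 rose and 1 fell in CTRL cells and 4 rose and 1 fell in inducible cells, the fall being that of ELOVL1 in both (-0.81 ± 0.05 and -0.54 ± 0.04). Of 14 glycerolipid synthesis genes, 3 rose and 3 fell in CTRL cells and 2 rose and 4 fell in inducible cells. Between the lines at 0 h, PCYT2 of phosphatidylethanolamine synthesis (-1.07 ± 0.06) and the acyltransferase gene AGPAT2 (-0.91 ± 0.06) were lower in inducible cells, and at 24 h DGAT2 of triglyceride synthesis was higher (0.60 ± 0.06). The isoprenoid branch, which leaves the pathway after farnesyl diphosphate, had 2 of 12 higher and 3 lower in CTRL cells and 1 higher and 3 lower in inducible cells. The list of SREBP processing and sterol-regulated degradation had 2 of 8 higher and 2 lower in each line at 48 h. The members' own medians at 48 h were 0.37 and 0.46, and those of the glycerolipid list were -0.07 and -0.01, each beside 0.01 and 0.00 for all genes.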
